A study of Rattus norvegicus with 16 samples.

Results

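The genes described here are the serum response factor coactivator myocardin (Myocd) and 9 cardiac transcription factors: Srf, Gata4, Gata6, Mef2a, Mef2c, Nkx2-5, Tbx5, Tbx20 and Hand2. They were chosen by name, from what is known of heart development, but with earlier results of these data known. Each was read from the brightest of its probe sets that carry a single gene symbol. Of these 10 genes, 9 were measured among the 17245 genes tested, each by 1 probe set, and Mef2a was not analysed here.

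Messenger RNA was measured on 16 Affymetrix arrays in the wall of the right ventricle of male Wistar rats weighing 160 to 180 g. Rats underwent either sham surgery or banding of the pulmonary artery, which makes the right ventricle pump against a raised pressure, and the labels do not state which operation each sample had. The samples are labelled RVF+ (5 arrays, numbered 8 to 12), RVF (4 arrays, 13 to 16) and CON (7 arrays, 1 to 7), where CON are the controls and the other 2 names are not spelled out. Whether the samples of a group are separate animals is not stated, so the p-values reflect variation among arrays that could be technical.

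Heart muscle genes are switched on by a small set of DNA-binding proteins that act together. SRF binds the CArG box, a short stretch rich in A and T, and drives muscle structural genes strongly only when a coactivator such as myocardin sits on it. GATA4, GATA6, NKX2-5, TBX5, TBX20, HAND2 and the MEF2 proteins bind other short motifs, contact each other, and are needed first to form the heart and later to keep the adult muscle cell working. Pressure overload is known to bring back a fetal programme in the ventricle, in which natriuretic peptides and skeletal muscle actin rise.

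The motifs these proteins bind can be seen in the start regions of the genes themselves. Regions were taken from RefSeq (rat assembly GRCr8), as 250 bases before and 50 bases after each gene's start, and were available for 7 of the 10 genes (all but Myocd, Gata4 and Mef2c). The CArG box of SRF, the MEF2 site, the GATA motif AGATAA, the NKX2-5 motif TNAAGTG and the T-box motif GGTGTNA were searched on both strands. Other forms of these motifs were not searched. Of 33469 such regions in the rat genome, 1.64% held a CArG box, 3.29% a MEF2 site, 11.6% AGATAA, 11.5% TNAAGTG and 10.9% GGTGTNA. No matches of different motifs shared letters among the 35 matches in the genes studied here. The 250 bases before Srf, at chr9:21923826-21924075 on the plus strand, are shown because they are the only ones of the 7 with CArG boxes. The 2 boxes, in capitals, begin 81 and 61 bases before the start:
Srf: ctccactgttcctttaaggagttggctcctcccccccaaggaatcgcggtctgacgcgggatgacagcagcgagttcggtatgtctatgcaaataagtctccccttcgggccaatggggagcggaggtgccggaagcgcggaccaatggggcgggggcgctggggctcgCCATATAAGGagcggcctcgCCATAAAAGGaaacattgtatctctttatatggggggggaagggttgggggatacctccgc

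Tbx5 and Gata6 were the members called lower in both RVF+ and RVF, so their regions are shown beside that of Srf. Those 250 bases lie at chr12:42395360-42395609 on the minus strand for Tbx5 and at chr18:2460659-2460908 on the plus strand for Gata6. The Tbx5 region holds TGATAA on its opposite strand, which differs from AGATAA in the first letter and was not searched. Both regions are in lower case throughout, since neither holds a match to any of the 5 motifs, in the forms searched, in this window:
Tbx5: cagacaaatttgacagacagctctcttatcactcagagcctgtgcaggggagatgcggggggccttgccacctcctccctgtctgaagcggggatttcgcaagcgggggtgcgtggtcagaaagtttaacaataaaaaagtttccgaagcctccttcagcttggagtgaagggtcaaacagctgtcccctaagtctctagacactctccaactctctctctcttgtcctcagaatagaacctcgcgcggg
Gata6: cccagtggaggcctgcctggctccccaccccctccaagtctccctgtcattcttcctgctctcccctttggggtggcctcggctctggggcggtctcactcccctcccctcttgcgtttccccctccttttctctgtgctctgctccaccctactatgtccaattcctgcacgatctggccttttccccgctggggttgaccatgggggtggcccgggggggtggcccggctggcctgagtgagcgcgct
Among the other regions, that of Mef2a held 1 MEF2 site and that of Hand2 held 1 AGATAA, while those of Nkx2-5 and Tbx20 held no match.

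All levels below are log2 of the deposited intensity, so a difference of 1 is a 2-fold difference in intensity, and levels of different genes cannot be compared. Each gene was tested with limma across all 17245 genes, with Benjamini-Hochberg adjustment, and is called changed where its adjusted p was at or below 0.05. The 9 measured genes are described in the order of their roles.

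**Figure D1:**
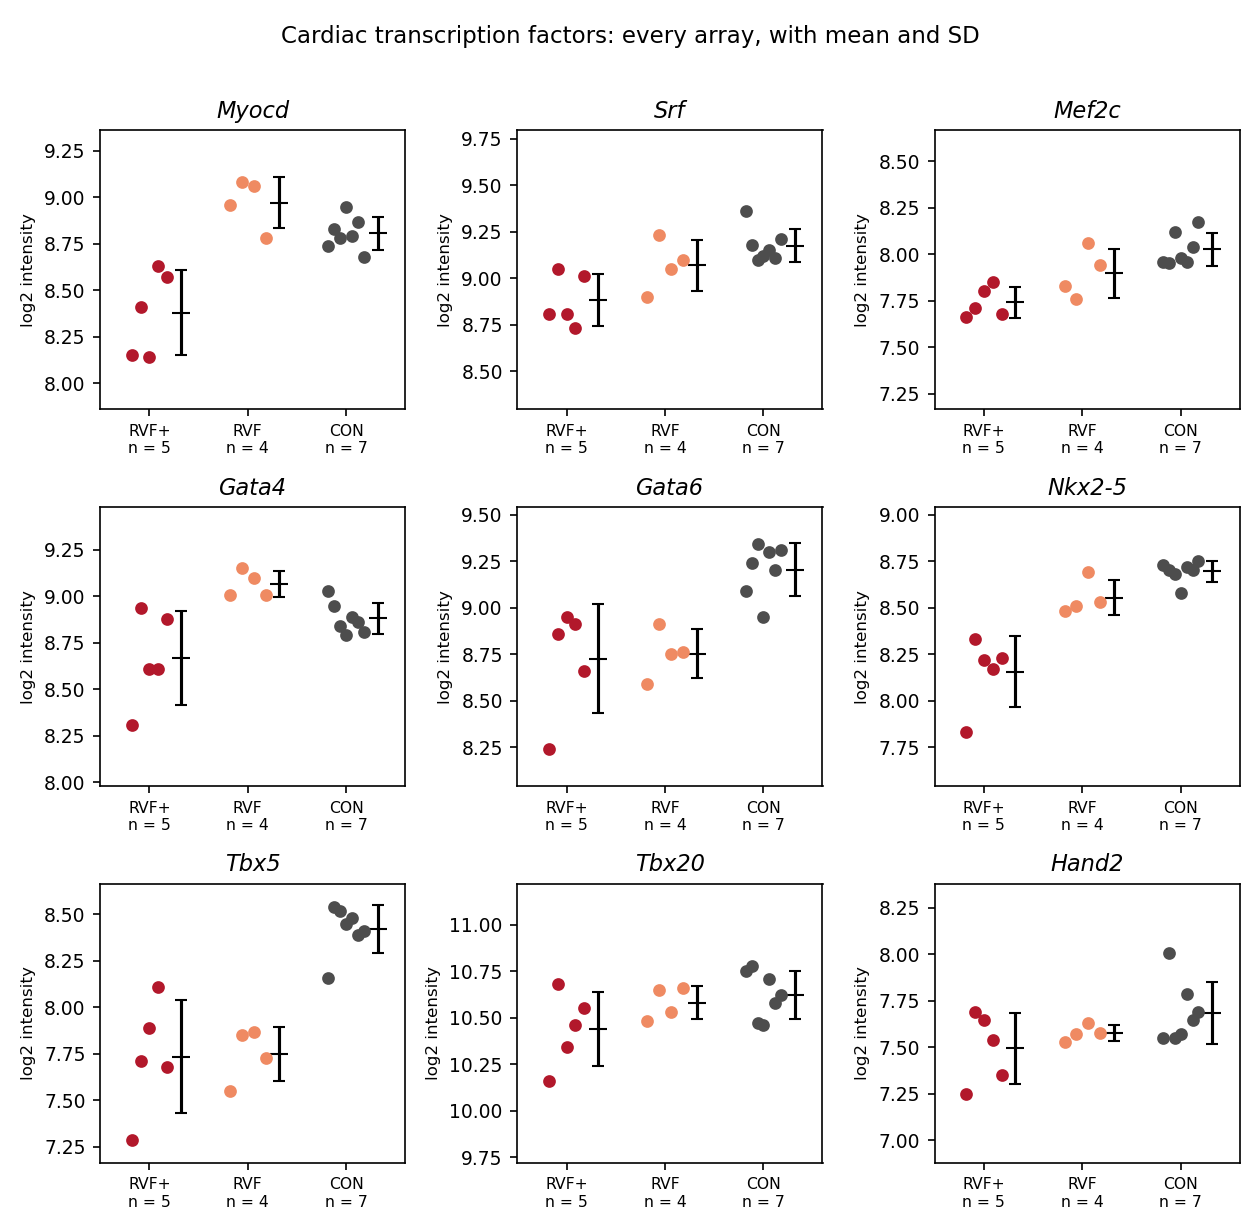
Log2 intensity (vertical axes, each with its own range) of the 9 measured genes in every array of RVF+, RVF and CON. Points are arrays, in order of array number within each group, and the bar beside them is the mean with its SD. Tbx5 lies below every CON array in both RVF+ and RVF, while Myocd lies below every CON array in RVF+ and averages 8.97 in RVF, against 8.81 in CON.

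The coactivator myocardin had its lowest values in RVF+. Myocd had 8.15, 8.41, 8.14, 8.63 and 8.57 in the 5 RVF+ arrays, and 8.96, 9.08, 9.06 and 8.78 in the 4 RVF arrays. In the 7 CON arrays it had 8.68 at the lowest, 8.79 at the median and 8.95 at the highest. Every RVF+ array was therefore below every RVF and every CON array, and 3 of the 4 RVF arrays were above all CON arrays. Myocd fell 1.34-fold in RVF+ against CON (log2 difference -0.42 ± 0.093, SE; adjusted p = 0.00236). The difference in RVF against CON was 0.16 ± 0.1 (adjusted p = 0.295, 95% interval -0.046 to 0.37), which is not a call.

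SRF, the DNA-binding partner of myocardin, moved less. Srf had 8.81, 9.05, 8.81, 8.73 and 9.01 in RVF+, and 8.9, 9.23, 9.05 and 9.1 in RVF. The CON arrays ran from 9.1 through a median of 9.15 to 9.36. All 5 RVF+ arrays lay below the lowest CON array, whereas RVF overlapped CON. Srf fell 1.23-fold in RVF+ against CON (-0.29 ± 0.078, adjusted p = 0.00883), and the difference in RVF against CON was -0.1 ± 0.083 (adjusted p = 0.455).

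MEF2 proteins work beside GATA and NKX2-5 factors and carry calcium signals to the genome. Mef2c had 7.66, 7.71, 7.8, 7.85 and 7.68 in RVF+, and 7.83, 7.76, 8.06 and 7.94 in RVF. In CON its lowest, median and highest values were 7.95, 7.98 and 8.17. No RVF+ array reached the lowest CON array, and 1 RVF array lay within the range of CON. Mef2c fell 1.22-fold in RVF+ against CON (-0.28 ± 0.07, adjusted p = 0.00536) and differed by -0.13 ± 0.075 in RVF against CON (adjusted p = 0.257).

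The zinc finger factors GATA4 and GATA6 bind the same motif. Gata4, which in mice is needed for the growth of the ventricle under pressure load, had 8.31, 8.94, 8.61, 8.61 and 8.88 in RVF+. It had 9.01, 9.15, 9.1 and 9.01 in RVF, and 8.79, 8.86 and 9.03 at the lowest, median and highest in CON. The 4 RVF arrays were thus higher than all 5 RVF+ arrays, and both groups overlapped CON. Gata4 differed by -0.21 ± 0.093 in RVF+ against CON (adjusted p = 0.104) and by 0.18 ± 0.1 in RVF against CON (adjusted p = 0.23, 95% interval -0.025 to 0.39). Neither is a call, although Gata4 in RVF+ against CON passed without RVF+ 9 (-0.28, adjusted p = 0.0325) or without RVF+ 12 (-0.26, adjusted p = 0.0489). Without RVF+ 8, its lowest array, it was -0.12 (adjusted p = 0.31).

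Gata6 fell in both groups. It had 8.24, 8.86, 8.95, 8.91 and 8.66 in RVF+, and 8.59, 8.91, 8.75 and 8.76 in RVF. In CON it ran from 8.95 through 9.24 to 9.34. The 4 RVF arrays and 4 of the 5 RVF+ arrays lay below all CON arrays. Gata6 fell 1.39-fold in RVF+ against CON (-0.48 ± 0.11, adjusted p = 0.00371) and 1.37-fold in RVF against CON (-0.45 ± 0.12, adjusted p = 0.0146). Without RVF 13 the difference in RVF was -0.4 and no longer passed (adjusted p = 0.0624).

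NKX2-5 is a homeobox factor that marks heart muscle cells from their first appearance. Nkx2-5 had 7.83, 8.33, 8.22, 8.17 and 8.23 in RVF+, and 8.48, 8.51, 8.69 and 8.53 in RVF. The CON arrays lay between 8.58 and 8.75, with a median of 8.7. The 5 RVF+ arrays were below every RVF and every CON array, and RVF overlapped the lower end of CON. Nkx2-5 fell 1.45-fold in RVF+ against CON (-0.54 ± 0.078, adjusted p = 7.95e-05), against -0.14 ± 0.084 in RVF against CON (adjusted p = 0.29).

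TBX5 is a T-box factor that activates heart muscle genes and, when mutated in people, causes malformations of heart and hand. Tbx5 had 7.29, 7.71, 7.89, 8.11 and 7.68 in RVF+, and 7.55, 7.85, 7.87 and 7.73 in RVF. In CON it had 8.16 at the lowest, 8.45 at the median and 8.54 at the highest. All 9 arrays outside CON were below all CON arrays. Tbx5 fell 1.61-fold in RVF+ against CON (-0.68 ± 0.11, adjusted p = 0.000232) and 1.59-fold in RVF against CON (-0.67 ± 0.12, adjusted p = 0.00083), the largest differences among the 9 genes in either comparison.

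Tbx20, which keeps the adult heart muscle programme and also represses other T-box genes, had 10.16, 10.68, 10.34, 10.46 and 10.55 in RVF+. It had 10.48, 10.65, 10.53 and 10.66 in RVF, and ran from 10.46 through 10.62 to 10.78 in CON. The 3 groups overlapped, and the differences were -0.19 ± 0.09 in RVF+ against CON (adjusted p = 0.132) and -0.045 ± 0.1 in RVF against CON (adjusted p = 0.804). The difference in RVF+ was -0.12 without RVF+ 8 (adjusted p = 0.349).

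HAND2 is a basic helix-loop-helix factor that builds the right ventricle in the embryo. Hand2 had 7.25, 7.69, 7.65, 7.54 and 7.35 in RVF+, and 7.53, 7.57, 7.63 and 7.58 in RVF. Its values in CON ran from 7.55 through 7.65 to 8.01, so that the groups overlapped. The differences were -0.19 ± 0.093 in RVF+ against CON (adjusted p = 0.146) and -0.11 ± 0.1 in RVF against CON (adjusted p = 0.518).

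**Figure D2:**
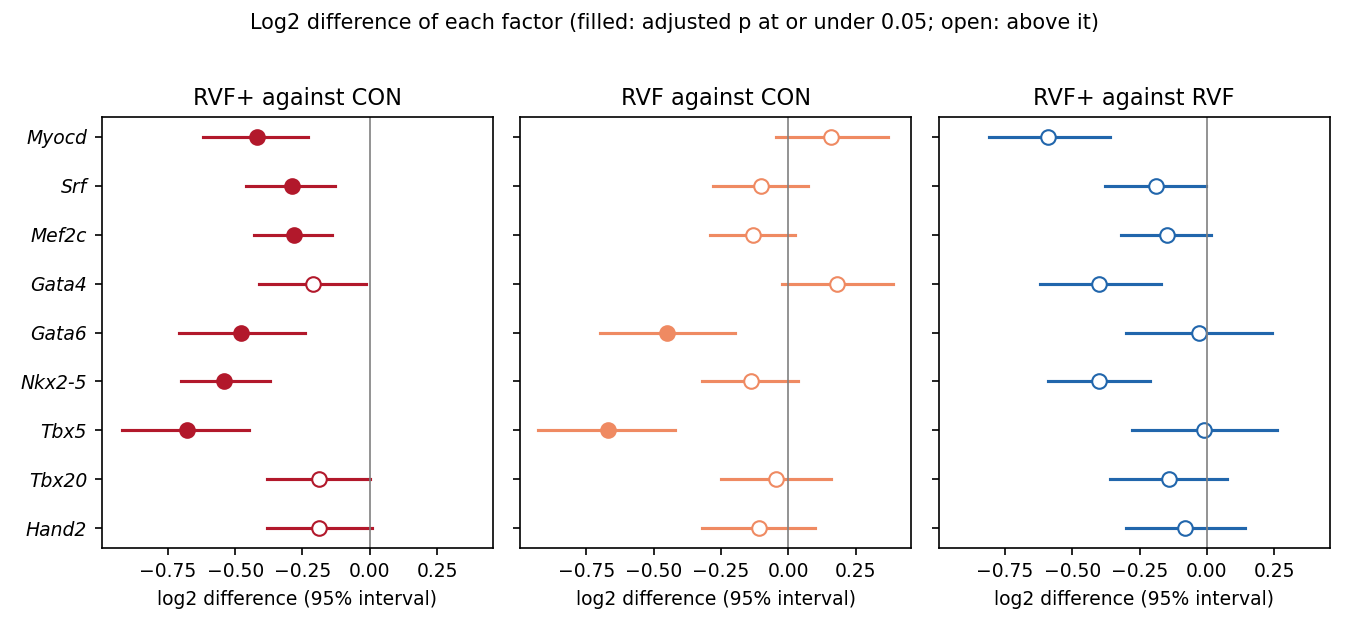
Log2 difference of each measured gene (horizontal axes; points with 95% intervals) in RVF+ against CON, RVF against CON and RVF+ against RVF. Filled points passed the test: 6 genes fell in RVF+ against CON, 2 in RVF against CON and 0 in RVF+ against RVF.

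Counted together, 6 of the 9 genes fell and 0 rose in RVF+ against CON, where 27.7% of all genes were called and 13.6% were called lower. Of all genes 14.1% were called higher. The median difference of the 9 genes was -0.29, beside -0.012 over all genes, and all 9 differences were negative. In 5 of them (Myocd, Srf, Mef2c, Nkx2-5 and Tbx5) no RVF+ array reached a CON array, which held for 7.63% of all genes. Against CON, RVF had 2 of the 9 genes lower (Gata6 and Tbx5) and 0 higher, where 17.1% of all genes were called, 8.86% higher and 8.29% lower. The 9 genes had a median difference of -0.11 there, beside -0.009 over all genes, and 7 of the differences were negative. In Gata6 and Tbx5 no RVF array reached a CON array, as in 9.0% of all genes. Both comparisons use the same CON arrays, so the counts are not independent.

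Centring each array on its own median moves all genes together. It raised the members called in RVF+ against CON to 8, adding Gata4 (-0.3, adjusted p = 0.0421) and Tbx20 (-0.28, adjusted p = 0.0461). It also moved the median of all genes to -0.106, with 1757 genes called higher and 3577 lower, beside 2423 higher and 2348 lower without it. For RVF against CON, centring gave 1084 genes called higher and 2108 lower, beside 1528 and 1429 without it, and 2 members were called either way.

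RVF+ 8 stood apart from the other arrays. It was the lowest of the RVF+ arrays for 7 of the 9 genes, and over all genes it lay 0.711 (root mean square of log2 differences) away from the average CON array. The remaining RVF+ arrays and the RVF arrays lay 0.326 to 0.448 away, and CON arrays 0.157 to 0.212. RVF 13 was likewise the lowest RVF array for 7 of the 9 genes, and without it Tbx5 still fell in RVF against CON (-0.61, adjusted p = 0.00585). Without RVF+ 8 the same 6 genes were called lower in RVF+ against CON, where 24.9% of all genes were called, 2076 of them lower. Tbx5 then differed by -0.57 (adjusted p = 0.000225), Nkx2-5 by -0.46 (adjusted p = 4.85e-05), Myocd by -0.37 (adjusted p = 0.0063) and Gata6 by -0.36 (adjusted p = 0.00549). Srf differed by -0.28 (adjusted p = 0.0196) and Mef2c by -0.26 (adjusted p = 0.0127).

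The summed marker messages of heart muscle cells also differed between the groups. The summed intensity of 8 ventricular muscle cell markers was 25760 in RVF+ 8 and 33177 to 36687 in the other RVF+ arrays, 34342 to 36605 in RVF, and 39758 to 41809 in CON. Of the 8 markers (led by Mb and Myl3), 3 fell and 0 rose in RVF+ against CON, and 0 changed in RVF against CON. Over all genes, 13.6% were called lower in RVF+ and 8.29% in RVF. Myh6, named after its values were seen, differed most, by -1.34 in RVF+ (adjusted p = 0.00125) and by -0.78 in RVF (adjusted p = 0.0745). Its RVF+ arrays spread widely, from 9.54 to 11.75 (SD 0.92), whereas its CON arrays ran from 12.44 to 12.57. The other markers differed by -0.47 to -0.046 in RVF+ and by -0.31 to 0.018 in RVF, so the sum does not measure muscle content evenly. In wall tissue, fewer muscle cells, less RNA per cell and a change of single markers such as Myh6 cannot be told apart. The part of this lower marker level in the lower factor messages was not tested.

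Fibroblast, smooth muscle, macrophage and proliferation sums were higher in every RVF+ and RVF array than in any CON array. The sum of 7 fibroblast markers (led by Dcn and Col1a1) was 6773 to 7617 in RVF+, 6584 to 7636 in RVF and 5600 to 6332 in CON. Not all of them followed the sum, since 4 of the 7 rose and 0 fell in each group against CON. Over all genes, 14.1% were called higher in RVF+ and 8.86% in RVF. Dcn, Pdgfra and Tcf21 averaged 12.26, 8.58 and 6.48 in RVF+, 12.25, 8.49 and 6.47 in RVF, and 12.21, 8.62 and 6.56 in CON. Postn and Fap, named after their values were seen, averaged 9.09 and 6.62 in RVF+, 8.97 and 6.58 in RVF, and 5.71 and 5.45 in CON. The sum of 6 smooth muscle and pericyte markers (led by Rgs5 and Pdgfrb) was 2894 to 3176 in RVF+, 2891 to 3456 in RVF and 2541 to 2791 in CON. Of these 6, 3 rose in RVF+ and 2 in RVF against CON, and 0 fell. Rgs5 and Myh11 averaged 10.93 and 7.0 in RVF+, 11.03 and 7.1 in RVF, and 10.89 and 7.11 in CON. Macrophage markers (5 genes, led by Csf1r and Mrc1) summed to 1109 to 3421 in RVF+, 1002 to 1396 in RVF and 567 to 820 in CON, and RVF+ 8 was the highest at 3421. Proliferation genes (5, led by Mki67 and Top2a) summed to 147 to 1213 in RVF+, 262 to 297 in RVF and 88 to 142 in CON, again with RVF+ 8 the highest. Endothelial markers (3, led by Tie1 and Vwf) summed to 854 to 1471 in RVF+, 783 to 992 in RVF and 721 to 790 in CON. Red cell genes (3, led by Hbb and Alas2) summed to 2149 to 6378 in RVF+, 1806 to 4240 in RVF and 1837 to 2372 in CON. Skeletal muscle genes (4, led by Tnnt3 and Actn3) summed to 90 to 108 in RVF+, 78 to 106 in RVF and 76 to 89 in CON. The 4 atrial markers, led by Nppa and Myl7, summed to 3367 to 5001 in RVF+, 4913 to 6315 in RVF and 624 to 2669 in CON. Nppa is itself a gene of the stressed ventricle, so the atrial sum cannot separate atrial tissue from that response. Of the 4, 2 rose and 0 fell in RVF+ against CON, and 1 rose and 2 fell in RVF against CON. The atrial myosin light chain gene Myl7 differed by -1.52 ± 0.6 in RVF+ (adjusted p = 0.0661) and by -1.93 ± 0.64 in RVF (adjusted p = 0.045). Sarcolipin, Sln, named after its values were seen, differed by -1.49 ± 0.56 in RVF+ (adjusted p = 0.0554) and by -1.86 ± 0.6 in RVF (adjusted p = 0.0399). With single arrays left out, the adjusted p in RVF ran from 0.0134 to 0.129 for Myl7 and from 0.0217 to 0.127 for Sln, and in RVF+ from 0.0181 to 0.134 and from 0.027 to 0.164. The higher atrial sum thus did not extend to Myl7 or Sln, which lay on the lower side in both groups. The CON arrays themselves spread widely, from 6.22 to 10.79 for Myl7 and from 6.45 to 10.03 for Sln. Nr2f2, the remaining atrial marker and also named after its values were seen, averaged 6.9 in RVF+, 6.5 in RVF and 6.48 in CON. Array intensities do not reach 0, so no marker could be shown to be absent, and the part of these cells in the members' levels was not tested.

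The comparison of RVF+ with RVF is also the test of whether their differences from CON differ. No gene passed it: 0 of 17245 were called (0.0%), the smallest adjusted p of all genes was 0.289, and 1242 genes (7.2%) had an unadjusted p at or below 0.05, 4.26% of all genes being lower in RVF+. Within that limit, all 9 members had a negative difference, with a median of -0.15 beside -0.005 over all genes. An unadjusted p at or below 0.05 was found for 4 of them, Myocd, Nkx2-5, Gata4 and Srf.

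Myocd stood near the top of all genes here. Its level in RVF+ was 66.5% of that in RVF, or 1.5-fold lower (log2 difference -0.59 ± 0.11, 95% interval -0.81 to -0.36), and by p-value it ranked 2 among 17245 genes (unadjusted p = 3.35e-05, adjusted p = 0.289 in limma). Leaving out each array in turn gave differences of -0.65 to -0.53 and adjusted p-values of 0.0557 to 0.696. Nkx2-5 ranked 13 (-0.4 ± 0.09, unadjusted p = 0.000344, adjusted p = 0.403 in limma) and Gata4 ranked 70 (-0.4 ± 0.11, unadjusted p = 0.00169, adjusted p = 0.403 in limma). In these 3 genes every RVF+ array was below every RVF array, which held for 1.15% of all genes. Without RVF+ 8 the differences were -0.53 for Myocd (adjusted p = 0.172), -0.32 for Nkx2-5 (adjusted p = 0.215) and -0.3 for Gata4 (adjusted p = 0.363).

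The other members differed less between RVF+ and RVF. Srf differed by -0.19 (95% interval -0.38 to -0.0035, adjusted p = 0.681) and Mef2c by -0.15 (-0.32 to 0.016, adjusted p = 0.732). Tbx20 differed by -0.14 (-0.36 to 0.073, adjusted p = 0.823) and Hand2 by -0.08 (-0.3 to 0.14, adjusted p = 0.921). For Gata6 the difference was -0.03 (-0.3 to 0.24, adjusted p = 0.982) and for Tbx5 -0.012 (-0.28 to 0.26, adjusted p = 0.994), and both changed sign without RVF+ 8, to 0.092 and 0.1. The intervals of these last 2 genes include differences of the size seen in Srf, so equal levels in RVF+ and RVF were not shown.

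**Figure D3:**
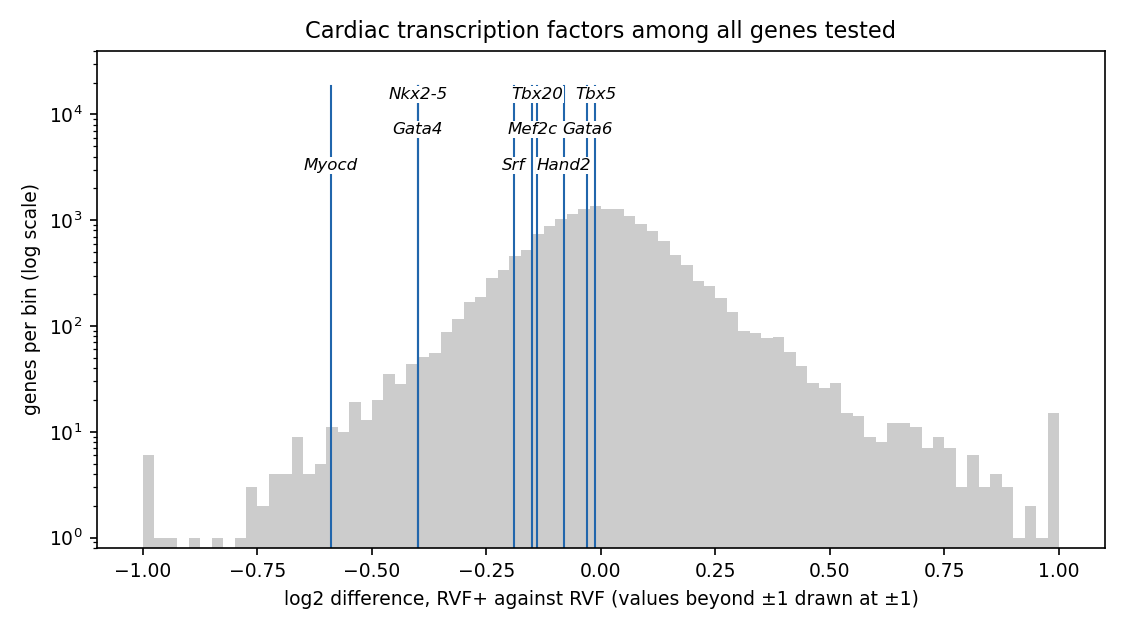
Number of genes (vertical axis, log scale) by their log2 difference in RVF+ against RVF (horizontal axis, in bins; values beyond ±1 are drawn at ±1) for all 17245 genes. Vertical lines mark the 9 measured factors. All 9 lie left of 0, with Myocd farthest at -0.59 and Nkx2-5 and Gata4 next at -0.4.

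Profiles of the members across the 16 arrays were compared after each gene was centred on its CON mean, by the root mean square difference between profiles. Among the members themselves, Srf and Tbx20 were the closest pair (0.118), and Hand2 (0.131) and Gata4 (0.138) were each nearest to Tbx20. Mef2c was nearest to Srf (0.161), Nkx2-5 to Mef2c (0.179), Myocd to Gata4 (0.19), and Gata6 and Tbx5 to each other (0.197). Over all genes tested, the 5 with the profile most like that of Tbx5 were Mitf (0.118), Cacna1c (0.121), Dcaf11 (0.123), Mettl15 (0.124) and Adra1a (0.125). Mitf encodes a basic helix-loop-helix transcription factor, Cacna1c the pore of the cardiac L-type calcium channel and Adra1a an alpha-adrenergic receptor. Cacna1c fell in RVF+ (-0.77 ± 0.14, adjusted p = 0.000532) and in RVF (-0.66 ± 0.15, adjusted p = 0.0053) against CON. Adra1a fell by 0.79 and 0.55 on the log2 scale in RVF+ and RVF against CON (adjusted p = 0.000102 and 0.00616), and Mitf by 0.69 and 0.53 (adjusted p = 0.000293 and 0.00738). Dcaf11 fell by 0.68 and 0.56 and Mettl15 by 0.71 and 0.67 in the same comparisons (adjusted p of 0.000277 or less). Because these 5 genes were picked for their likeness to Tbx5 on the same arrays, falls in both groups follow from the choice. Their p-values are therefore descriptions and not separate evidence.

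Genes near Myocd were looked up after its values were seen. The 5 nearest were Ppp2r3a (0.102), Ppp1r12b (0.13), Twnk (0.137), Grb14 (0.137) and Klc2 (0.142). Ppp2r3a and Ppp1r12b encode regulatory subunits of protein phosphatases, and Twnk the helicase of mitochondrial DNA. In RVF+ against CON they differed by -0.36 (Ppp2r3a, adjusted p = 0.016), -0.35 (Ppp1r12b, adjusted p = 0.0351), -0.26 (Twnk, adjusted p = 0.0251), -0.41 (Grb14, adjusted p = 0.00337) and -0.27 (Klc2, adjusted p = 0.0161). The call ended without RVF+ 10 for Ppp2r3a (-0.3, adjusted p = 0.0512), without RVF+ 8 or RVF+ 10 for Twnk (-0.22 and -0.2, adjusted p = 0.0677 and 0.08), and for Ppp1r12b without RVF+ 8, RVF+ 10 or any of CON 2, 5, 6 and 7 (-0.35 to -0.21, adjusted p = 0.0525 to 0.0878). The call of Ppp1r12b also ended with only the compared groups in the fit (-0.35, adjusted p = 0.0539) and with array weights (-0.25, adjusted p = 0.062). None of these 5 genes was called in RVF against CON, with differences of 0.11 for Ppp2r3a, 0.1 for Ppp1r12b, 0.084 for Twnk, 0.075 for Grb14 and 0.048 for Klc2. Since the 5 were picked for their likeness to Myocd on the same arrays, this pattern also follows from the choice.

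Partners and paralogs of the members formed a list of 32 genes, of which 30 were measured. Against CON, RVF+ had 5 that rose and 10 that fell (median -0.14, beside -0.012 over all genes), and in RVF against CON 5 rose and 8 fell (median 0.0073, beside -0.009). Of all genes, 14.1% were called higher and 13.6% lower in RVF+ against CON, and 8.86% and 8.29% in RVF against CON. Without RVF+ 8, 14 were called in RVF+ against CON, 5 of them higher, where 24.9% of all genes were called. Centring each array gave 4 higher and 11 lower in RVF+, and 3 higher and 8 lower in RVF. Gata5, the third cardiac GATA factor, had 7.19, 7.99, 7.62, 8.32 and 8.05 in RVF+, 8.27, 8.21, 8.37 and 8.13 in RVF, and 8.86 to 9.23 in CON. It was below all CON arrays in both groups, and fell 2.28-fold in RVF+ (-1.19 ± 0.14, adjusted p = 1.22e-05) and 1.72-fold in RVF (-0.78 ± 0.15, adjusted p = 0.00155). Zfpm2, which binds GATA proteins and modifies their action, fell 1.64-fold in RVF+ (-0.71 ± 0.092, adjusted p = 2.7e-05) and 1.43-fold in RVF (-0.52 ± 0.1, adjusted p = 0.00134). Smyd1, a muscle chromatin and myosin chaperone protein, fell 1.77-fold in RVF+ (-0.83 ± 0.11, adjusted p = 2.77e-05) and 1.43-fold in RVF (-0.52 ± 0.11, adjusted p = 0.00456).

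Some other partners of SRF and of the muscle programme rose, and others fell. Hopx, a homeodomain protein that binds SRF without touching DNA and restrains it, had 7.82, 7.77, 7.36, 7.32 and 7.89 in RVF+, 8.75, 7.6, 7.55 and 7.62 in RVF, and 6.0 to 6.89 in CON. It rose 2.22-fold in RVF+ (1.15 ± 0.21, adjusted p = 0.000529) and 2.63-fold in RVF (1.4 ± 0.22, adjusted p = 0.000291, and 1.11 without RVF 13). Mrtfa, a myocardin relative that moves into the nucleus when actin polymerises, was named after its values were seen. It rose 1.29-fold in RVF+ (0.37 ± 0.1, adjusted p = 0.00751) and in RVF (0.37 ± 0.1, adjusted p = 0.0172), and the call in RVF ended without RVF 14 (0.34, adjusted p = 0.061). Tead4, which binds the MCAT motif of stress-induced muscle genes, rose 1.67-fold in RVF+ (0.74 ± 0.11, adjusted p = 6.72e-05) and 1.38-fold in RVF (0.46 ± 0.11, adjusted p = 0.00863). Elk1, Prox1, Smarcd3 and Tead1 of the list were named after their values were seen. The first 3 fell in RVF+ (-0.46, -1.03 and -0.35, adjusted p = 0.00507, 0.00044 and 0.0278). In RVF, Prox1 fell (-0.6, adjusted p = 0.0412), while Elk1 and Smarcd3 were not called (-0.26 and -0.12, adjusted p = 0.147 and 0.557). Tead1 was called in neither (0.024 in RVF+ and 0.19 in RVF, adjusted p = 0.87 and 0.171).

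Some repressors of the same network, not all, were also looked at after their values were seen. Hdac5, a histone deacetylase that holds MEF2 and myocardin back, fell 1.39-fold in RVF+ (-0.48 ± 0.076, adjusted p = 0.00017) and 1.26-fold in RVF (-0.34 ± 0.081, adjusted p = 0.0079). The other deacetylase genes of the list, Hdac4, Hdac7 and Hdac9, lay on the higher side and were not called. They differed by 0.17, 0.11 and 0.015 in RVF+ (adjusted p = 0.122, 0.573 and 0.933). In RVF they differed by 0.08, 0.089 and 0.27 (adjusted p = 0.564, 0.708 and 0.103). Klf15, which restrains hypertrophic growth by acting on GATA4 and MEF2, fell 1.59-fold in RVF+ (-0.67 ± 0.18, adjusted p = 0.00953). The difference of Klf15 in RVF was -0.67 ± 0.19 (adjusted p = 0.0218), and it no longer passed without RVF 13, RVF 14 or RVF 15 (-0.67 to -0.62, adjusted p = 0.0569 to 0.0687). The MEF2 paralog Mef2d differed by -0.27 ± 0.11 in RVF+ (adjusted p = 0.0956) and -0.094 ± 0.12 in RVF (adjusted p = 0.662). It was -0.15 in RVF+ without RVF+ 8 (adjusted p = 0.292) and -0.0026 in RVF without RVF 13 (adjusted p = 0.994). Elk3 and Hey2, also named after their values were seen, moved in opposite directions. Elk3 rose in RVF+ and RVF (0.49 and 0.35, adjusted p = 0.00015 and 0.00572). Hey2 fell in both (-0.61 and -0.73, adjusted p = 0.0148 and 0.0125).

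Between RVF+ and RVF no partner was called, and 7 of the 30 had an unadjusted p at or below 0.05, beside 7.2% of all genes. Their median difference over the list was -0.15, beside -0.005 over all genes. The 3 smallest belonged to the Iroquois homeobox genes Irx5, Irx4 and Irx3, which pattern ventricular gene expression and conduction. Irx4, the ventricular marker among them, had 6.31, 7.01, 6.73, 6.64 and 6.9 in RVF+, 7.08, 7.3, 7.16 and 6.88 in RVF, and 6.84 to 7.33 in CON. RVF+ and RVF overlapped for Irx4 (-0.39 ± 0.13, unadjusted p = 0.00761, adjusted p = 0.495 in limma). Irx5 differed by -0.64 ± 0.2 (adjusted p = 0.455) and Irx3 by -0.54 ± 0.19 (adjusted p = 0.537). Gata5 came next (-0.41 ± 0.16, adjusted p = 0.608), with 4 of the 5 RVF+ arrays below all RVF arrays, and was -0.25 without RVF+ 8 (adjusted p = 0.638).

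Genes that these factors are known to drive in heart muscle made up a list of 24, of which 23 were measured. In RVF+ against CON 5 rose and 9 fell (median -0.19, beside -0.012 over all genes), and in RVF against CON 5 rose and 2 fell (median -0.063, beside -0.009). The shares over all genes were 14.1% higher and 13.6% lower in RVF+, and 8.86% higher and 8.29% lower in RVF. Without RVF+ 8, 13 were called in RVF+ against CON, 5 of them higher, where 24.9% of all genes were called. Under centring 5 were higher and 12 lower in RVF+, and the split in RVF stayed at 5 and 2. Acta1, the skeletal muscle actin whose promoter is a standard reporter of SRF, had 11.63, 11.26, 11.03, 10.63 and 11.58 in RVF+, 11.65, 11.78, 11.84 and 11.44 in RVF, and 9.13 to 10.04 in CON. It rose 3.17-fold in RVF+ (1.67 ± 0.19, adjusted p = 7.64e-06) and 4.35-fold in RVF (2.12 ± 0.2, adjusted p = 2.6e-06), with no overlap with CON. Nppa, the atrial natriuretic peptide gene and a target of GATA4, NKX2-5 and TBX5, rose 19.1-fold in RVF+ (4.26 ± 0.5, adjusted p = 1.14e-05) and 23.7-fold in RVF (4.57 ± 0.54, adjusted p = 1.73e-05). Nppb, its B-type relative, rose 6.48-fold in RVF+ (2.7 ± 0.33, adjusted p = 1.73e-05) and 6.79-fold in RVF (2.76 ± 0.36, adjusted p = 4.17e-05). The CON arrays spread widely, from 6.35 to 10.2 for Nppa and from 7.69 to 10.42 for Nppb, so these folds hold for group means only. Myh7, the slow myosin heavy chain of the fetal programme, rose 1.74-fold and 1.83-fold in those groups (0.8 and 0.87, adjusted p = 1.58e-05 and 1.96e-05).

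Gja1, the connexin of ventricular gap junctions, fell 1.82-fold in RVF+ (-0.87 ± 0.12, adjusted p = 5.37e-05) and 1.47-fold in RVF (-0.55 ± 0.13, adjusted p = 0.0067). In RVF+ against RVF no cardiac target was called, and 5 of the 23 had an unadjusted p at or below 0.05, beside 7.2% of all genes. Hcn4, the pacemaker channel, had 7.81, 6.83, 6.75, 7.07 and 7.13 in RVF+, 8.61, 8.11, 8.3 and 7.64 in RVF, and 6.56 to 7.5 in CON. All RVF arrays were above all CON arrays, and 4 of the 5 RVF+ arrays were below all RVF arrays. Hcn4 rose 1.98-fold in RVF against CON (0.99 ± 0.22, adjusted p = 0.00416), and differed by -0.06 ± 0.2 in RVF+ against CON (adjusted p = 0.865). In RVF+ against RVF it differed by -1.05 ± 0.23 (unadjusted p = 0.000296, adjusted p = 0.403 in limma). Next by p came the sodium-calcium exchanger gene Slc8a1 (-0.25, adjusted p = 0.552), calsequestrin Casq2 (-0.27, adjusted p = 0.622) and Gja1 (-0.31, adjusted p = 0.648). Without RVF+ 8, Casq2 differed by -0.18 (adjusted p = 0.684) and Gja1 by -0.19 (adjusted p = 0.743).

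Targets of SRF with myocardin or its relatives in smooth muscle and in the early growth response formed the last list, 24 genes with 23 measured. In RVF+ against CON 8 rose and 1 fell (median 0.23, beside -0.012 over all genes), and in RVF against CON 3 rose and 1 fell (median 0.21, beside -0.009). The shares of all genes called were 27.7% in RVF+ (14.1% higher) and 17.1% in RVF (8.86% higher). The 4 calls among 23 genes in RVF are close to that share. Without RVF+ 8 the split in RVF+ against CON became 5 higher and 1 lower, and under centring 5 higher and 3 lower. Ccn2, a matricellular growth factor gene, rose 4.12-fold in RVF+ (2.04 ± 0.16, adjusted p = 4.77e-07) and 4.97-fold in RVF (2.31 ± 0.17, adjusted p = 3.28e-07). Tpm2, a tropomyosin gene, had 8.62, 6.9, 6.76, 6.65 and 7.01 in RVF+, 7.93, 7.12, 6.99 and 7.77 in RVF, and 5.75 to 6.44 in CON. It rose in RVF+ (1.17 ± 0.27, adjusted p = 0.00373, and 0.82 without RVF+ 8) and in RVF (1.44 ± 0.29, adjusted p = 0.00234).

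The actin crosslinker Flna rose 1.5-fold in RVF+ (0.59 ± 0.14, adjusted p = 0.00351) and had a difference of 0.45 ± 0.15 in RVF (adjusted p = 0.0424). Its call in RVF ended when any of RVF 13 to RVF 16, or CON 2, 3, 4, 6 or 7, was left out (0.39 to 0.5, adjusted p = 0.0553 to 0.138), and also under quantile normalization (0.45, adjusted p = 0.0527). The integrin subunit Itga8 rose 1.81-fold in RVF+ (0.85 ± 0.19, adjusted p = 0.00298) and differed by 0.61 ± 0.21 in RVF (adjusted p = 0.0511), where it passed without CON 1 (0.68, adjusted p = 0.0327). Vcl, the focal adhesion protein vinculin, was the member of the list that fell, 1.2-fold in RVF+ (-0.27 ± 0.071, adjusted p = 0.00857) and in RVF (-0.26 ± 0.076, adjusted p = 0.0244). Its call in RVF ended without RVF 13, RVF 15 or RVF 16 (-0.26 to -0.25, adjusted p = 0.0573 to 0.0649). Smooth muscle and pericyte marker sums were higher in both groups, as given above, and their part in this list was not tested. Between RVF+ and RVF no gene of the list was called or had an unadjusted p at or below 0.05; the smallest belonged to Csrp1 (0.25, adjusted p = 0.8), Ccn2 (-0.27, adjusted p = 0.81), Tagln (0.32, adjusted p = 0.845) and Egr1 (-0.4, adjusted p = 0.863). These sizes moved with single arrays: leaving out 1 array at a time gave 0.082 (without RVF+ 8) to 0.33 for Csrp1, -0.43 (without RVF+ 8) to -0.15 (without RVF+ 11) for Ccn2, 0.068 (without RVF+ 8) to 0.45 for Tagln, and -0.6 (without RVF+ 10) to -0.18 (without RVF+ 12) for Egr1.

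**Figure D4:**
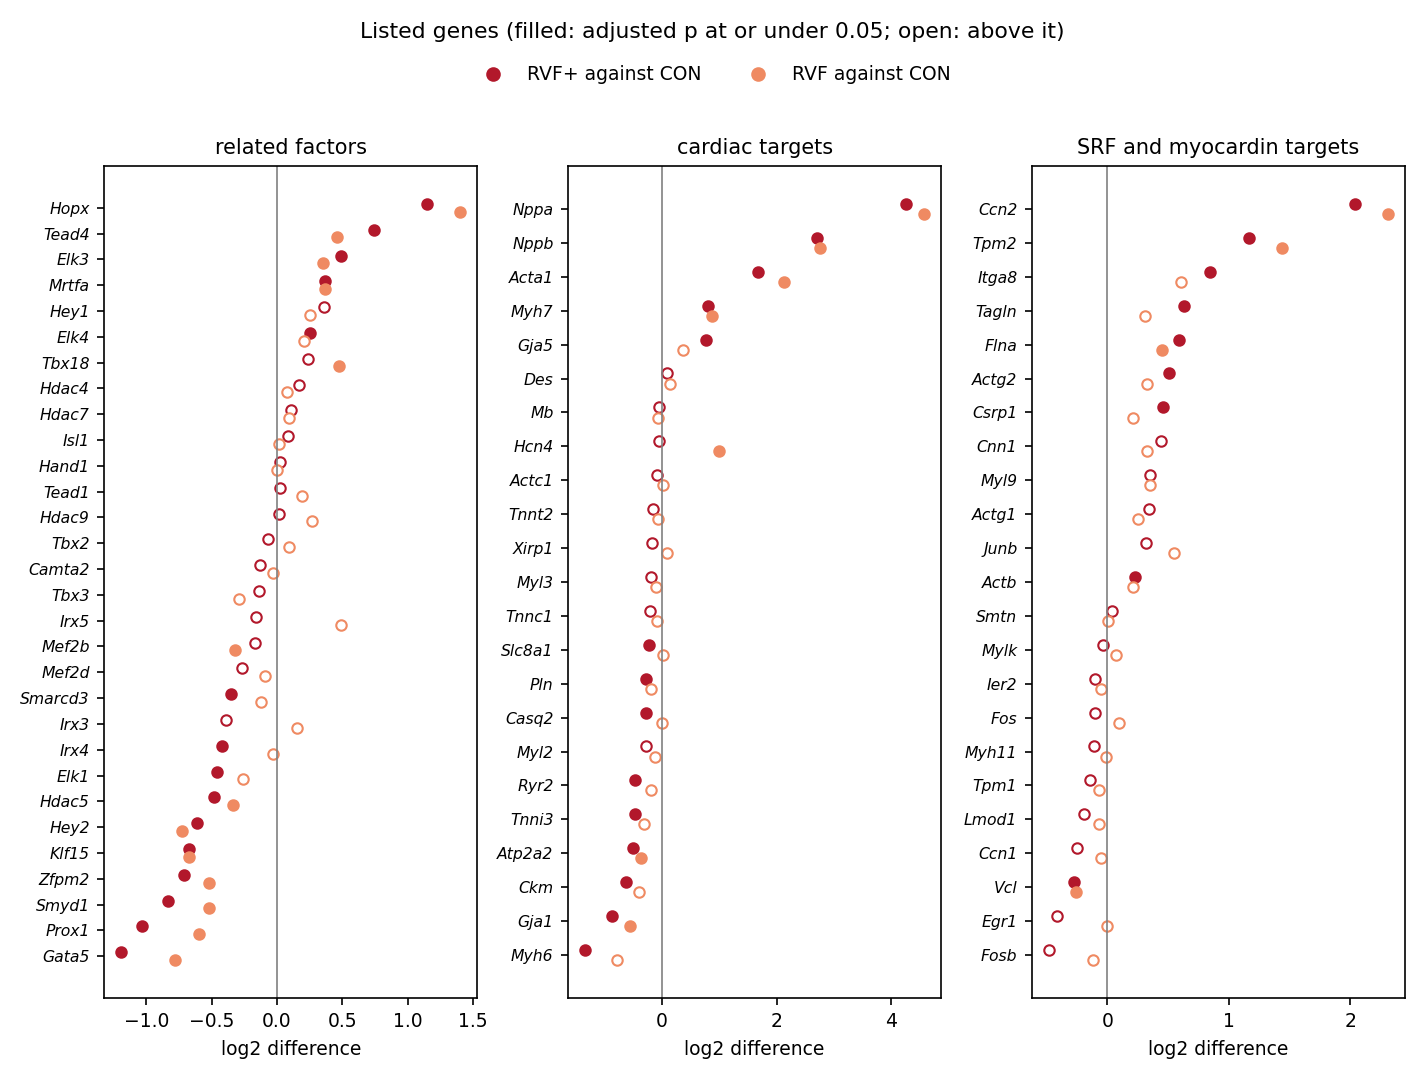
Log2 difference (horizontal axes) in RVF+ against CON and in RVF against CON for the measured genes of the 3 lists: partners and paralogs, heart muscle targets, and targets of SRF with myocardin or its relatives. Filled points passed the test. Gata5 fell and Hopx rose in both comparisons, and Nppa had the largest difference of the middle list, 4.26 in RVF+ and 4.57 in RVF.

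CArG boxes were found in the start regions of 1 of 23 partners, 3 of 20 heart muscle targets and 2 of 18 SRF and myocardin targets, beside 1.64% of all regions. Windows of 30 bases around 5 of them are shown, with the box in capitals, to set the sequence SRF binds beside how each gene behaved. They lie at chr19:68784269-68784298 (minus strand) for Acta1, chr3:121271806-121271835 (minus) for Actc1, chr8:119616987-119617016 (plus) for Myl3, chr10:106121022-106121051 (minus) for Actg1 and chr18:26736963-26736992 (plus) for Egr1:
Acta1: tgcccaacacCCAAATATGGcttgggaagg
Actc1: gctaaggcgaCCAAATAAGGcaaggtggca
Myl3: gagccaatgcCCTTTTATGGccctgtccct
Actg1: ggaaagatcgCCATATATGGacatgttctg
Egr1: gtcggtccttCCATATTAGGgcttcctgct
The box begins 94, 97, 90 and 105 bases before the start in Acta1, Myl3, Actg1 and Egr1, and at base 3 of the transcript in Actc1. Egr1 holds a second box 83 bases before its start. These genes did not share a response. Acta1 rose as given above, whereas the cardiac actin gene Actc1 differed by -0.095 ± 0.069 in RVF+ and 0.018 ± 0.074 in RVF against CON (adjusted p = 0.341 and 0.904), and by -0.024 in RVF+ without RVF+ 8. The myosin light chain gene Myl3 differed by -0.19 ± 0.08 in RVF+ and -0.11 ± 0.085 in RVF (adjusted p = 0.0826 and 0.452), and passed in RVF+ without RVF+ 12 (-0.25, adjusted p = 0.0284), but was -0.1 (adjusted p = 0.248) without RVF+ 8. Cytoplasmic actin gamma, Actg1, differed by 0.34 ± 0.14 in RVF+ and 0.25 ± 0.15 in RVF (adjusted p = 0.0755 and 0.267), and passed in RVF+ without RVF+ 11 (0.46, adjusted p = 0.0126), but was 0.17 (adjusted p = 0.218) without RVF+ 8. The early response gene Egr1 differed by -0.41 ± 0.3 in RVF+ and -0.002 ± 0.33 in RVF (adjusted p = 0.356 and 0.997), and by -0.6 to -0.19 in RVF+ with single arrays left out. The partner with a box, Camta2, differed by -0.13 ± 0.092 in RVF+ and -0.033 ± 0.1 in RVF (adjusted p = 0.323 and 0.865), and by -0.044 in RVF+ without RVF+ 8. A match is a description of letters and does not show that SRF was bound.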

How the data were processed

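Per the labels' protocols, 500 ng of total RNA per sample was turned into labelled cDNA, and 16 arrays were hybridised, 1 each. The values the authors deposited are RMA intensities per the submitters' processing notes, 1 for each probe set of an array, on a linear scale from 2.202 to 10294. The software version, array build and genome build were not given in sources used here. Array medians lay between 27.1 and 29.3, and precision is limited by how many arrays there are.

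Intensities were converted to log2. Of 29214 probe sets, 18644 carry exactly 1 symbol in the array annotation, 962 several and 9608 are not listed by it. Of those with 1 symbol, 18460 matched the RefSeq gene table (GRCr8) by gene ID, and 0 symbols changed. The brightest probe set was taken for the 879 genes with several, which left 17245 genes, with no filter on dim genes. Group means were fitted to all arrays with limma 3.58.1 (lmFit and eBayes) in R 4.3.3, with 13 residual and 4.45 prior degrees of freedom. All tests are two-sided, with Benjamini-Hochberg adjustment over the 17245 genes and a threshold of 0.05. The procedure was tested on simulated data.

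The members, the partner, heart muscle target, SRF and myocardin target and marker lists, and the tests were chosen with earlier results of these data known. Named genes are all members, the 4 genes of each of these 3 lists with the smallest p in each comparison, the profiles nearest to Tbx5, the 2 brightest markers of each marker list, and those said to be named after their values were seen. Actc1, Myl3, Actg1, Egr1 and Camta2 are also named for the CArG box in their start regions. Markers outside these rules, such as Pdgfra, Tcf21 and Myh11, were named after their values were seen. Alternatives were quantile normalization, median centring, a filter at the median level, all probe sets or their mean, only the compared groups, trend and robust moderation, array weights, and leaving out each array.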

Additional observations from a re-analysis of the deposited data

Results flagged for a closer look

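An array was marked where its gap to the nearest other array of its group, divided by the group's range, exceeded Dixon's critical value. This was tested in 162 groups of arrays, 3 for each of 54 genes, and 11 were marked, where chance alone marks about 1 in 20.

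Among the members, CON 1 was the highest CON array for Srf (9.36, next 9.21) and the lowest CON array for Tbx5 (8.16, next 8.39). RVF+ 8 was the lowest RVF+ array for Actc1 (11.73, next 12.04) and for Dcaf11 (7.68, next 8.06), and the highest for Tpm2 (8.62, next 7.01). RVF+ 11 was the lowest RVF+ array for Nppa (11.53, next 12.01). RVF 13 was the highest RVF array for Hopx (8.75, next 7.62) and the lowest for Mettl15 (6.56, next 6.76). RVF 15 was the highest RVF array for Hdac5 (7.63, next 7.41). RVF 16 was the lowest RVF array for Klc2 (7.44, next 7.64) and for Ppp1r12b (8.57, next 8.87).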

How the results depend on the processing

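Leaving out each array in turn left 6 to 7 members called in RVF+ against CON, 1 to 2 in RVF against CON (1 without RVF 13) and 0 in RVF+ against RVF. Of all genes, 24.9% were called in RVF+ against CON without RVF+ 8 and 27.6% without RVF+ 12. In RVF against CON, 12.0% were called without RVF 13. For partners the counts called in the 3 comparisons, in the same order, were 13 to 15, 9 to 13 and 0. They were 12 to 15, 6 to 7 and 0 for heart muscle targets. For SRF and myocardin targets they were 6 to 10, 2 to 5 (2 without RVF 13 or RVF 16) and 0. With only the compared groups in the fit, heart muscle targets called in RVF against CON numbered 12 and SRF and myocardin targets 7, beside 7 and 4 in the full fit, and array weights gave 11 heart muscle targets. The shares of all genes called under these settings are not given here, so the rises cannot be read as particular to these lists. Without RVF+ 12, 3 genes of all tested were called in RVF+ against RVF, none of them a member.

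Small differences changed sign. In RVF+ against RVF, Gata6 became 0.064 with array weights, 0.092 without RVF+ 8 and 0.023 without RVF 14 (leaving out single arrays gave -0.086 to 0.092). Tbx5 became 0.041 with array weights, 0.1 without RVF+ 8, 0.0013 without RVF+ 12, 0.021 without RVF 14 and 0.027 without RVF 15 (-0.1 to 0.1 over all arrays left out). In RVF+ against CON, Hcn4 became 0.013 without RVF+ 9 and 0.032 without RVF+ 10 (-0.23 to 0.032). Median centring gave -0.066 for Actc1, -0.009 for Grb14 and -0.036 for Klc2 in RVF against CON, and Actc1 was -0.0033 without RVF 15 (-0.0033 to 0.043). Egr1 in that comparison became 0.015 with quantile normalization, 0.055 with array weights, and 0.061, 0.1, 0.05, 0.085, 0.075 and 0.075 without CON 1, CON 4, CON 6, CON 7, RVF 13 and RVF 16 (-0.14 to 0.1). The cause of these changes was not tested.

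No paired analysis was possible because the groups share no replicate numbers. The number of arrays, with 4 in RVF, limits what RVF+ against RVF can show.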
